A study of Mus musculus with 6 samples.

Results

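The genes described here are 10 that encode extracellular proteases, their inhibitors and the urokinase pair in alveolar macrophages of the mouse, which patrol the air spaces of the lung. They are the metalloproteinases Mmp8, Mmp12, Mmp13, Mmp14 and Mmp19, the membrane protease Adam8, the tissue inhibitors Timp1 and Timp2, and the urokinase gene Plau with its receptor gene Plaur. All 10 were among the 11789 genes of the expression table. The genes were picked by symbol and chosen on results of this same comparison of knockout with wild-type libraries, so their levels and differences are a description and no test of their own is given.

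The 6 libraries were 3 of alveolar macrophages from A20 conditional knockout mice (columns A20-1, A20-3 and A20-4) and 3 from wild-type mice (columns BLM1, BLM2 and BLM3), and values below follow this order. A20 is the protein of Tnfaip3, which restrains NF-kB signalling. All mice were C57BL/6, and the series title places all of them after an exposure abbreviated BLM. The wild-type columns are named for the exposure only, and were taken as wild type because the labels hold 2 groups and the other columns name A20. The labels give no age, dose, day, Cre driver, cell gate or pooling of animals, so the spread between libraries may be partly technical.

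Matrix metalloproteinases are zinc enzymes made as inactive precursors, and between them they cleave elastin, collagens, basement membrane and other secreted or membrane proteins. TIMPs bind their active sites and block them. Urokinase turns plasminogen into plasmin, a protease that cleaves fibrin and activates several metalloproteinase precursors, and its receptor holds it on the cell surface. In the lung this system is known for its part in air space enlargement, in the entry of leukocytes and in the turnover of scar matrix.

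Levels are FPKM, fragments scaled by transcript length and library size, which allows levels of different genes to be set side by side. Differences are taken on log2(FPKM + 1), as knockout minus wild type, with a standard error (SE) from a limma fit over the 10696 genes whose mean FPKM reached 1. A gene is said to be past the threshold where its limma adjusted p was under 0.05. At an unadjusted limma p under 0.05 there were 2172 of the 10696 genes. Read depth is unknown. Summed FPKM was 266094 to 294525 per library. Across genes, log2 levels correlated at 0.980 to 0.982 between knockout libraries and at 0.984 between BLM1 and BLM2, but BLM3 correlated with BLM1 and BLM2 at 0.936 and 0.926, so values without BLM3 are given where they matter. Tnfaip3, the targeted gene, had 8.44, 12.9 and 6.80 FPKM in the knockout libraries, against 4.47, 2.18 and 21.6 in the wild-type libraries. It differed by 0.46 ± 0.69 on the log2 scale (limma adjusted p = 0.734), and by 1.27 without BLM3 (limma adjusted p = 0.0797), where every knockout value was above both wild-type values. A lower level in the libraries labelled knockout was thus not seen. As the deleted exons are not given, the gene-level value does not check the labels.

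Most of these genes were lower in the knockout libraries. In 7 of 10 all 3 knockout values lay below all 3 wild-type values, in 0 of 10 above, and in 3 they overlapped. Over all genes tested, 13.1% had all knockout values below and 15.9% had them above. The 4 genes Mmp12, Adam8, Plau and Mmp13 were past the threshold and lower, and 0 were past it and higher, where 0.851% of all genes tested were past it and lower and 0.252% past it and higher. As the genes were selected on this comparison, nothing is read from these shares. The median difference was -1.14 over the 10 genes and 0.02 over all genes tested. All 10 passed the filter on low values, but Mmp13 did so through its wild-type level alone. The sum of marker genes of monocytes and recruited macrophages was lower in the same libraries, at 764 to 1064 FPKM in knockout and 2213 to 2425 in wild type. Of these markers, 9 gene IDs lay below in every knockout library and 4 overlapped. Fewer cells of a type and less RNA per cell cannot be told apart in bulk RNA. Leaving out 1 library at a time, the number of the 10 past the threshold and lower was 0 without A20-3 or without BLM1. It was 1 without A20-4, 2 without A20-1, 3 without BLM2 and 5 without BLM3. Of all 10696 genes tested, those past it and lower were 0 without A20-3, 4 without BLM1 and 14 without A20-4. They were 24 without A20-1, 76 without BLM2 and 267 without BLM3.

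**Figure D1:**
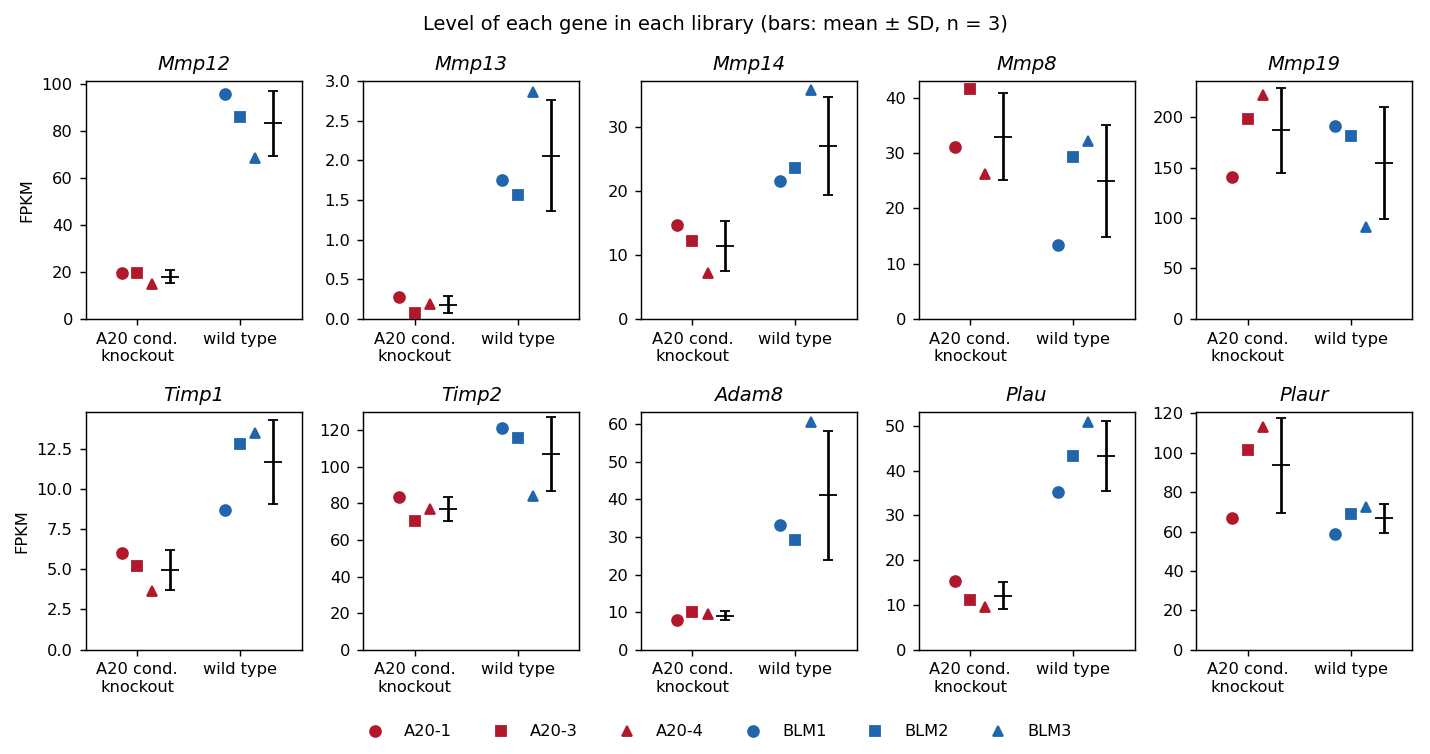
FPKM of each gene (vertical axes, linear from 0, 1 scale per panel) in the 3 A20 conditional knockout libraries (red) and the 3 wild-type libraries (blue). Bars give the mean ± SD (n = 3). The groups are separate for 7 genes and overlap for Mmp8, Mmp19 and Plaur.

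Mmp12, macrophage elastase, had the most negative difference of the 10 genes on the log2(FPKM + 1) scale. Mmp13 was more negative with a pseudocount of 0.1 (-2.99, against -2.21 for Mmp12) and with TPM (-2.29, against -2.11 for Mmp12). It lies on GRCm38 chromosome 9, 7344381 to 7369499, plus strand (ENSMUSG00000049723.14). Its FPKM was 19.5, 19.7 and 14.7 in the knockout libraries, against 95.8, 86.1 and 68.4 in the wild-type libraries. Even the lowest wild-type library, BLM3, stood well above the highest knockout library. The means were 18.0 ± 2.82 in knockout and 83.4 ± 13.9 in wild type (SD, n = 3 each), a ratio of 0.216, and the log2 difference was -2.15 ± 0.17 (SE). This was the 21st most negative difference of the 10696 genes. Without BLM3 it was -2.28. Its 3′ end overlaps Mmp1b on the opposite strand, and Mmp1b was not in the table used here. The use of strand in counting is not given in the sources used here, so reads of an overlapping gene could not be told apart.

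Mmp13, an interstitial collagenase of rodents that cleaves fibrillar collagen, was the least abundant of the 10. It lies on chromosome 9, 7272514 to 7283331, plus strand (ENSMUSG00000050578.10). Its FPKM was 0.278, 0.0685 and 0.189 in the knockout libraries, against 1.76, 1.57 and 2.86 in the wild-type libraries. The knockout libraries were near 0 and the groups did not overlap. The means were 0.178 ± 0.105 in knockout and 2.06 ± 0.700 in wild type (SD, n = 3 each), a ratio of 0.0866. The log2 difference was -1.36 ± 0.19 (SE), where the added 1 is larger than the knockout levels. With a pseudocount of 5 it was -0.44 and not past the threshold.

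Mmp8, known as neutrophil collagenase, did not share this pattern, although it belongs to the same chromosome 9 cluster (7558456 to 7568485, plus strand, ENSMUSG00000005800.3). Its FPKM was 31.1, 41.7 and 26.2 in the knockout libraries, against 13.4, 29.3 and 32.2 in the wild-type libraries. The ranges overlapped and BLM1 was the lowest library. The means were 33.0 ± 7.91 in knockout and 24.97 ± 10.1 in wild type (SD, n = 3 each), with a log2 difference of 0.45 ± 0.34 (SE). It was 0.075 without BLM1, 0.68 without BLM3 and 1.03 with array weights, and not past the threshold in any of these. In GENCODE M21 the cluster holds 9 metalloproteinase genes, of which 4 were in the table: Mmp13, Mmp12, Mmp8 and Mmp27. Mmp13 and Mmp12 are 61.05 kb apart, and 189 kb separate Mmp12 from Mmp8. Mmp27, which starts 2.91 kb beyond Mmp8, was listed at 0 in all 3 knockout libraries, against 0.253, 0.145 and 1.45 FPKM in the wild-type ones.

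Mmp14 encodes a membrane-anchored metalloproteinase that cleaves collagen at the cell surface and activates proMMP2. It lies on chromosome 14, 54431612 to 54445364, plus strand (ENSMUSG00000000957.11). Its FPKM was 14.7, 12.2 and 7.13 in the knockout libraries, against 21.6, 23.5 and 35.7 in the wild-type libraries. All knockout values were below all wild-type values, with the widest gap between A20-4 and BLM3. The log2 difference was -1.20 ± 0.29 (SE), not past the threshold, and -0.98 without BLM3.

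Mmp19 was the most abundant of the 10 in each group. Its secreted product is known to cleave basement membrane proteins. It lies on chromosome 10, 128790910 to 128800824, plus strand (ENSMUSG00000025355.7). Its FPKM was 140.5, 198 and 223 in the knockout libraries, against 192, 182 and 90.7 in the wild-type libraries. BLM3 was the low library, and BLM1 and BLM2 lay inside the knockout range. The log2 difference of 0.32 ± 0.32 (SE) turned to -0.02 without BLM3. The gene Tmem198b, which was in the table, overlaps it on the opposite strand.

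Adam8 encodes a membrane-anchored metalloprotease of leukocytes that sheds cell surface proteins. It lies on chromosome 7, 139978932 to 139992562, minus strand (ENSMUSG00000025473.16). Its FPKM was 7.80, 10.1 and 9.39 in the knockout libraries, against 33.2, 29.3 and 60.6 in the wild-type libraries. The knockout libraries were close together, while BLM3 was far above BLM1 and BLM2. The means were 9.09 ± 1.17 in knockout and 41.0 ± 17.1 in wild type (SD, n = 3 each). The log2 difference was -1.99 ± 0.27 (SE), and without BLM3 it was -1.68.

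Both inhibitors were lower in the knockout libraries. Timp1, the inducible inhibitor, lies on chromosome X, 20870166 to 20874735, plus strand (ENSMUSG00000001131.11). Its FPKM was 6.04, 5.21 and 3.63 in the knockout libraries, against 8.67, 12.8 and 13.5 in the wild-type libraries. The groups did not overlap, and the log2 difference was -1.09 ± 0.22 (SE), not past the threshold. Timp1 sits within Syn1, which runs on the opposite strand and was in the table.

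Timp2, an inhibitor that also takes part in the activation of proMMP2 by MMP14, was much more abundant. It lies on chromosome 11, 118301069 to 118355740, minus strand (ENSMUSG00000017466.9). Its FPKM was 83.5, 70.2 and 77.1 in the knockout libraries, against 121.4, 115.5 and 83.8 in the wild-type libraries. The highest knockout library and BLM3 were nearly equal, so the separation rests on a narrow gap. The log2 difference was -0.45 ± 0.17 (SE), and without BLM3 it was -0.62 and past the threshold. Cep295nl, also in the table, overlaps Timp2 on the same strand.

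Plau, the urokinase gene, was lower in the knockout libraries, while its receptor gene Plaur overlapped between the groups. Plau, on chromosome 14, 20836660 to 20843385, plus strand (ENSMUSG00000021822.3), had an FPKM of 15.4, 11.1 and 9.62 in the knockout libraries, against 35.3, 43.4 and 51.0 in the wild-type libraries. The highest knockout library stayed below the lowest wild-type library. The means were 12.04 ± 2.98 in knockout and 43.2 ± 7.83 in wild type (SD, n = 3 each), and the log2 difference was -1.77 ± 0.20 (SE).

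Plaur, on chromosome 7, 24462484 to 24475968, plus strand (ENSMUSG00000046223.10), had an FPKM of 66.7, 101.5 and 113 in the knockout libraries, against 58.6, 69.1 and 72.7 in the wild-type libraries. A20-1 lay inside the wild-type range, while A20-3 and A20-4 lay above it. The log2 difference was 0.45 ± 0.21 (SE), not past the threshold.

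**Figure D2:**
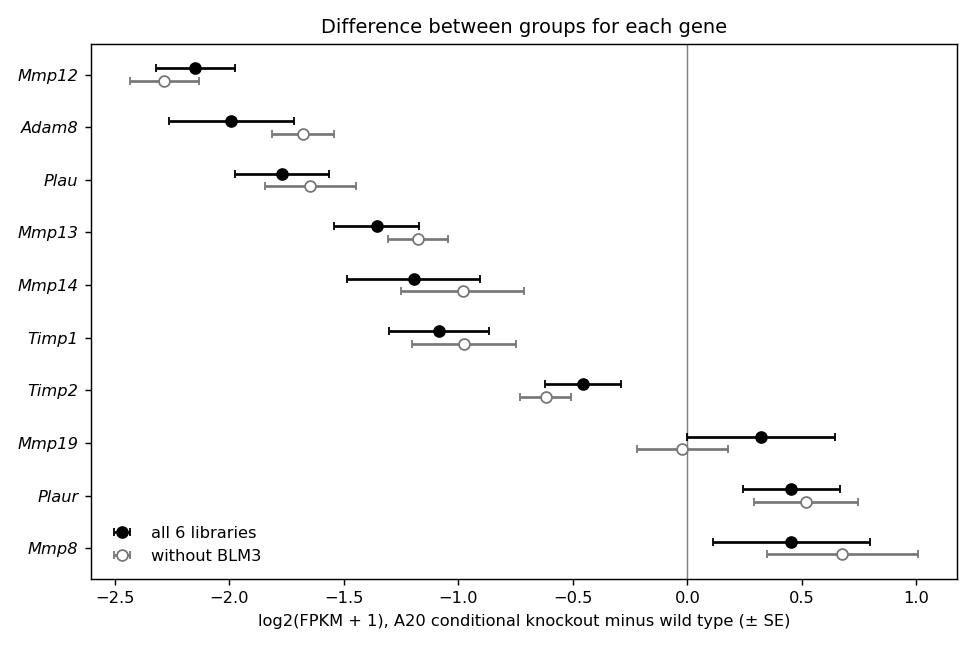
Difference of each gene between A20 conditional knockout and wild type on the log2(FPKM + 1) scale (horizontal axis, ± SE), with all 6 libraries (filled) and without BLM3 (open). With 6 libraries 7 genes are negative and 3 positive; Mmp19 moves to about 0 without BLM3.

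The order of levels differed between the groups. In knockout libraries Mmp19 (187 FPKM on average) was followed by Plaur (93.7), Timp2 (76.9), Mmp8 (33.0), Mmp12 (18.0), Plau (12.04), Mmp14 (11.4), Adam8 (9.09), Timp1 (4.96) and Mmp13 (0.178). Neighbours whose ranges overlapped there were Plaur with Timp2, Mmp12 with Plau, Plau with Mmp14 and Mmp14 with Adam8. In wild-type libraries Mmp19 (155 FPKM) was followed by Timp2 (106.9), Mmp12 (83.4), Plaur (66.8), Plau (43.2), Adam8 (41.0), Mmp14 (26.9), Mmp8 (24.97), Timp1 (11.6) and Mmp13 (2.06). Only the steps from Plaur to Plau and from Timp1 to Mmp13 had ranges that did not overlap in that group. Mmp12 thus ranked above Mmp8 in wild type and below it in the knockout libraries.

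The metalloproteinase transcripts differed in make-up, while their totals overlapped. The summed FPKM of the 5 metalloproteinases was 206, 272 and 271 in the knockout libraries, against 324, 322 and 230 in the wild-type libraries. BLM3 had a total inside the knockout range. Mmp12 made up 5.45% to 9.47% of the sum in knockout libraries and 26.7% to 29.8% in wild-type libraries. Mmp19 made up 68.1% to 82.2% in knockout and 39.5% to 59.1% in wild type. The summed FPKM of Timp1 and Timp2 was 75.4 to 89.5 in knockout and 97.3 to 130.1 in wild type. The ratio of the 2 sums, metalloproteinases over TIMPs, was 3.09 ± 0.69 in knockout and 2.46 ± 0.0811 in wild type (SD, n = 3 each), and the ranges overlapped. The ratio of Mmp12 to Timp1 was 3.23 to 4.07 in knockout and 5.07 to 11.05 in wild type, with no overlap. These are transcript levels and do not measure active enzyme.

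Plaur exceeded Plau in every library, by a ratio of FPKM of 4.34, 9.13 and 11.7 in the knockout libraries, against 1.66, 1.59 and 1.43 in the wild-type libraries. The ratio was higher in every knockout library than in any wild-type library. It is a ratio of levels within a library, and the scaling of a library cancels in it.

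**Figure D3:**
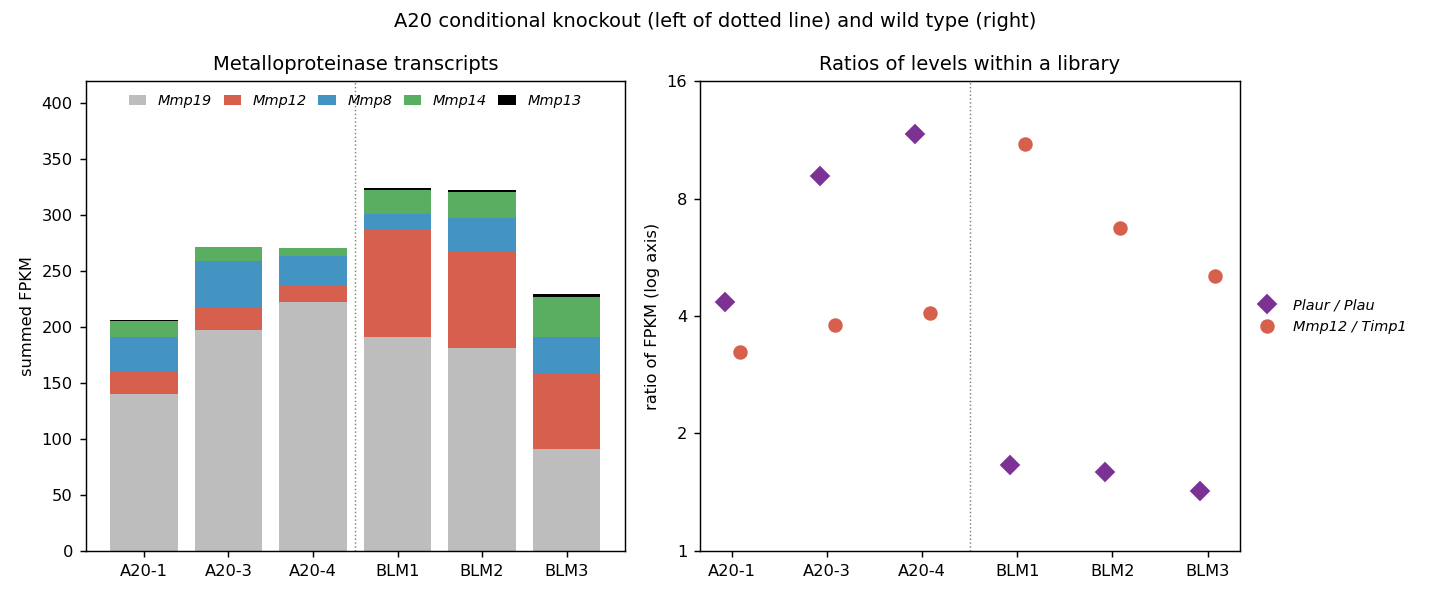
Left, FPKM of the 5 metalloproteinases stacked for each library (linear axis from 0). Right, ratios of FPKM within each library (log axis). Mmp12 takes 5.45% to 9.47% of the stack in A20 conditional knockout and 26.7% to 29.8% in wild type, and the ratio of Plaur to Plau is higher, that of Mmp12 to Timp1 lower, in every knockout library than in any wild-type library.

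Single libraries moved the genes in different directions. BLM3 was the highest wild-type library for 7 of the 10 genes (Mmp8, Mmp13, Mmp14, Timp1, Plau, Plaur and Adam8) and the lowest for Mmp12, Mmp19 and Timp2. A20-4 was the lowest knockout library for Mmp8, Mmp12, Mmp14, Timp1 and Plau. The median difference of the 10 genes was -0.98 without BLM3. The 5 genes tested whose levels were most like those of Mmp12 over the 6 libraries were Cbr4, Ccdc122, Hmgn3, Cotl1 and Cebpzos, with Pearson r of 0.993 to 0.997 on the log2(FPKM + 1) scale, given as a description of libraries that fall into 2 groups.

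Markers of other cells moved with the libraries. Of 13 neutrophil genes 9 were in the table, and their summed FPKM was 88.4 to 117 in knockout and 138, 134 and 2825 in BLM1, BLM2 and BLM3. Ly6g, a defining marker, was listed at 0 in A20-3, A20-4, BLM1 and BLM2, at 0.0752 in A20-1 and at 2.25 in BLM3. S100a9, a neutrophil calprotectin subunit, had 10.2, 24.2 and 19.1 FPKM in the knockout libraries, against 24.8, 24.8 and 1535 in the wild-type libraries. BLM3 was the highest library for 8 of the 9 genes. The exception was Ltf, which encodes the granule protein lactoferrin, with 35.5, 27.5 and 20.9 FPKM in the knockout libraries, against 9.01, 13.1 and 28.9 in the wild-type libraries. Mmp8 was likewise not set apart in BLM3, at 32.2 FPKM there and 29.3 in BLM2. Without BLM3 the differences of Mmp12, Adam8, Plau and Mmp13 were -2.28, -1.68, -1.65 and -1.18, and all 4 were past the threshold. Without A20-3, or without BLM1, 0 of them were past it. Of all 10696 genes tested, 267 were past it and lower without BLM3, 0 without A20-3 and 4 without BLM1. The part of neutrophil RNA in these differences was not tested.

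**Figure D4:**
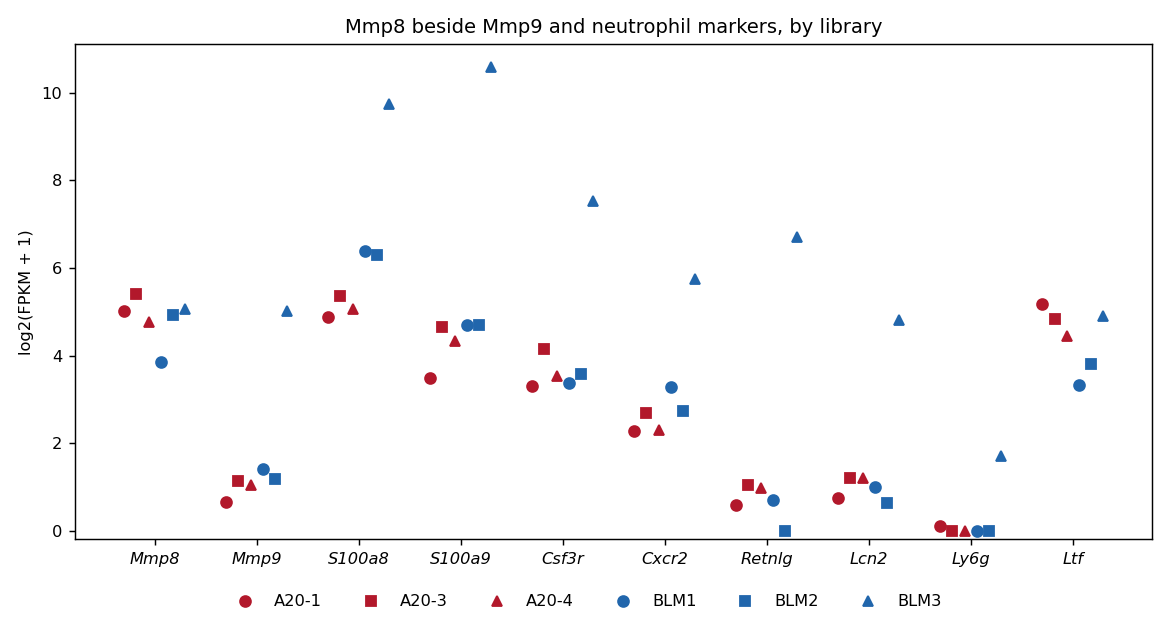
log2(FPKM + 1) of Mmp8 beside all 9 neutrophil genes in the table, in the 3 A20 conditional knockout libraries (red) and the 3 wild-type libraries (blue). BLM3 is the highest library for 8 of the 9 genes but not for Ltf, and Mmp8 has 32.2 FPKM in BLM3 and 29.3 in BLM2.

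Of 13 genes of monocytes and recruited macrophages, 12 symbols (13 gene IDs, as Itgam has 2) were in the table. Their summed FPKM was 764 to 1064 in knockout and 2213 to 2425 in wild type. Of the 13 IDs 5 fell (Apoe and the complement genes C1qa, C1qb and C1qc among them) and 0 rose (limma; 9 at an unadjusted p under 0.05). Over all genes tested, 0.851% fell and 0.252% rose. Apoe alone had 266 to 280 FPKM in knockout and 750 to 908 in wild type. Of the 13 IDs, 11 had a negative difference and 2 a positive one. Fn1 was positive, at 0.19, with 142 to 380 FPKM in knockout and 96.4 to 317 in wild type. All 13 alveolar macrophage markers were in the table, with a summed FPKM of 5458 to 7803 in knockout and 3965 to 6999 in wild type. Most of that sum was Chil3, at 3269 to 5471 FPKM in knockout and 2998 to 4765 in wild type. Of the 13, 10 had a positive difference, and the median was 0.70, or 0.19 without BLM3. In 6 all knockout values lay above all wild-type values. Over all genes tested, 15.9% lay above in this way and 13.1% below. Marco fell and 0 rose (limma; 8 at an unadjusted p under 0.05). Cidec, a lipid droplet gene, had 37.5, 31.02 and 42.1 FPKM in the knockout libraries, against 6.02, 12.7 and 2.24 in the wild-type libraries. All 9 epithelial genes were in the table, with a summed FPKM of 451 to 508 in knockout and 98.6 to 287 in wild type. Their directions were mixed: 4 lay above in every knockout library, while the keratin genes Krt8 and Krt18 lay below. Krt18 had 3.91, 5.61 and 5.08 FPKM in the knockout libraries, against 20.6, 17.2 and 10.02 in the wild-type libraries. Of 9 fibroblast genes, 2 were in the table and their sum was 1.78 to 4.59 in knockout and 2.05 to 2.68 in wild type. Of the epithelial genes 0 of 9 were past the threshold (limma; 6 at an unadjusted p under 0.05), and of the neutrophil genes 0 of 8 tested (limma; 1 at an unadjusted p under 0.05). Of all 10696 genes tested, 2172 were at an unadjusted p under 0.05 (limma). Without BLM3 the epithelial genes had 2 falls and 1 rise, and the neutrophil genes 1 fall and 1 rise. The alveolar macrophage genes then had 2 falls and 3 rises, and the recruited macrophage genes 5 falls and 0 rises. All 10696 genes tested had 267 falls and 144 rises in that fit. The marker genes named here were chosen after their values were seen. The part of these marker genes in the differences of the 10 genes was not tested.

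Other genes of the protease pathways, from lists drawn up by function, are given next. Their counts at an unadjusted p under 0.05 stand beside 2172 of all 10696 genes tested (limma). Of 18 other matrix metalloproteinases 7 were in the table and 3 were tested, of which 0 were past the threshold (limma; 2 at an unadjusted p under 0.05). Mmp2, a gelatinase, had 3.58, 1.70 and 1.96 FPKM in the knockout libraries, against 3.9996, 4.53 and 5.95 in the wild-type libraries (log2 difference -0.80 ± 0.23, limma adjusted p = 0.139). The groups did not overlap. Mmp25, a membrane-anchored metalloproteinase, had a log2 difference of -0.60 ± 0.18 (limma adjusted p = 0.145). Mmp9, the gelatinase of neutrophils and macrophages, had 0.575, 1.203 and 1.06 FPKM in the knockout libraries, against 1.65, 1.28 and 31.2 in the wild-type libraries. Its high value was that of BLM3, and the log2 difference of -1.59 became -0.35 without that library.

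Among 21 other genes of the ADAM and ADAMTS families 12 were in the table and 9 were tested, with 0 past the threshold (limma; 1 at an unadjusted p under 0.05) and a median difference of 0.22. Adam10 and Adam9, which shed surface proteins, were the most abundant, and their differences were 0.05 ± 0.21 and 0.11 ± 0.19 (SE). Adam17, the sheddase of TNF, was named after its values were seen, and its difference was -0.015 ± 0.32 (SE) with overlapping ranges. Adam22 had 1.87, 1.55 and 1.602 FPKM in the knockout libraries, against 0.541, 0.629 and 0.269 in the wild-type libraries (log2 difference 0.86 ± 0.14, limma adjusted p = 0.0537). Adam22 passed the filter on low values through its knockout level alone, so its difference supports nothing further. Adam19 and Adamts10 had differences of 0.38 ± 0.18 and 0.22 ± 0.11 (SE).

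The list of other inhibitors, activators and regulators of metalloproteases held 18 genes, of which 13 were in the table and 10 were tested. None of the 10 was past the threshold (limma; 1 at an unadjusted p under 0.05), and the median was -0.08. Cd63, a tetraspanin that binds TIMP1, had 117, 126 and 120 FPKM in the knockout libraries, against 177, 198 and 168 in the wild-type libraries (log2 difference -0.58 ± 0.11, limma adjusted p = 0.0692, and 0.0332 without BLM3). The groups did not overlap. Bsg, which encodes the metalloproteinase inducer basigin, had a difference of -0.22 ± 0.11, and Cd44, a hyaluronan receptor, of 0.29 ± 0.21 (SE). Lrp1, the endocytic receptor that clears protease and inhibitor complexes, had a difference of 0.75 ± 0.33 (SE, limma adjusted p = 0.265).

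Of 26 other genes of plasminogen activation, 21 symbols (22 gene IDs) were in the table and 18 IDs were tested. F3 fell and 0 rose (limma; 7 at an unadjusted p under 0.05), and the median was -0.15. F3 encodes tissue factor, the starter of coagulation. It had 1.203, 1.79 and 1.35 FPKM in the knockout libraries, against 5.31, 4.28 and 4.27 in the wild-type libraries, which gives -1.20 ± 0.14 on the log2 scale (limma adjusted p = 0.0261). The groups were well apart. The call of F3 ended without A20-1, A20-3, A20-4 or BLM1 (limma adjusted p = 0.0831, 0.0904, 0.122 and 0.111). St14, which encodes the surface protease matriptase, had a difference of -0.67 ± 0.14 (limma adjusted p = 0.0812, and 0.0284 without BLM3).

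The plasminogen-binding genes Anxa2 and S100a10 had differences of 0.28 ± 0.19 and 0.20 ± 0.16 (SE), of which S100a10 was named after its values were seen. The integrin chain Itgb2, a partner of the urokinase receptor, had 0.15 ± 0.23 (SE). Its alpha chain Itgam is carried by 2 gene IDs, with differences of -1.71 ± 0.58 and -2.93 ± 0.61 (SE, limma adjusted p = 0.182 and 0.0829), and how reads were shared between them is not given in the sources used here.

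**Figure D5:**
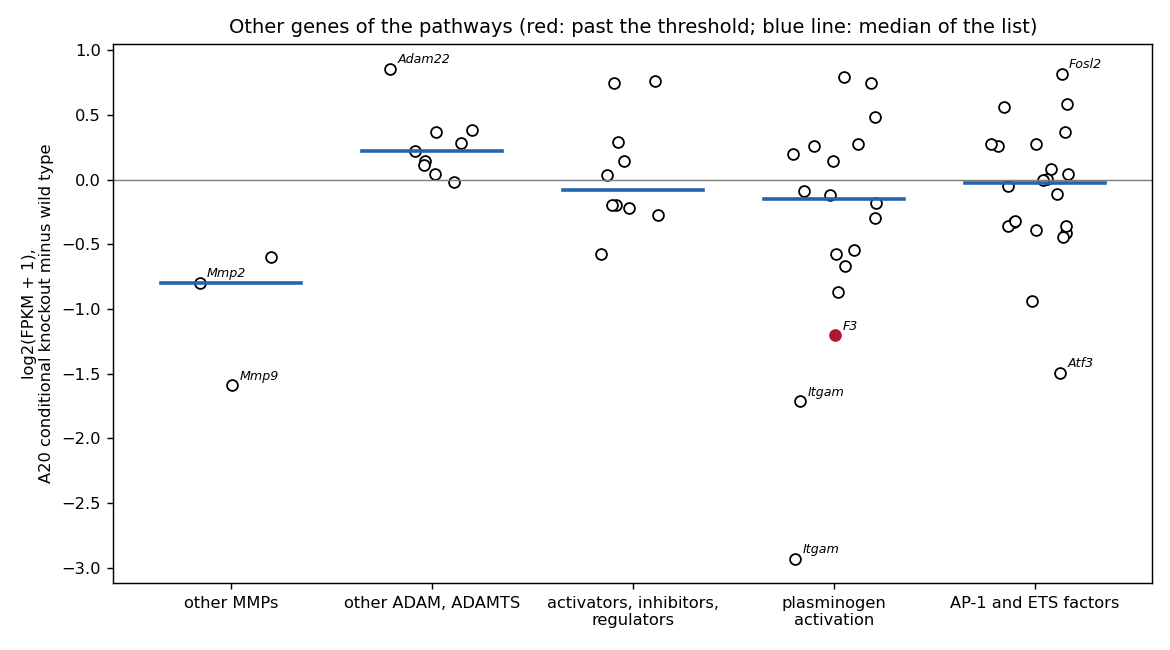
Difference between A20 conditional knockout and wild type on the log2(FPKM + 1) scale (vertical axis) for every tested gene of 5 lists; the horizontal spread is for legibility. F3 (filled) is past the threshold, and the list medians (lines) run from -0.80 to 0.22.

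AP-1 and ETS proteins are the factors best known to act on the promoters of metalloproteinase and urokinase genes. Of 24 such genes 23 were in the table and 22 were tested, with 0 past the threshold (limma; 9 at an unadjusted p under 0.05, against 2172 of all 10696 genes tested). The median difference was -0.02, with 11 negative and 11 positive differences. Atf3, a stress-induced partner of AP-1, had 14.1, 21.99 and 24.3 FPKM in the knockout libraries, against 60.1, 40.3 and 77.0 in the wild-type libraries (log2 difference -1.49 ± 0.29, limma adjusted p = 0.0718). Fosl2, an AP-1 subunit, had 28.3, 40.3 and 44.0 FPKM in the knockout libraries, against 16.6, 19.7 and 26.3 in the wild-type libraries (log2 difference 0.82 ± 0.22, limma adjusted p = 0.123, and 0.0498 without BLM3). Neither gene's groups overlapped, and the directions were opposite. Etv5 had a difference of -0.39 ± 0.13, Jund of 0.28 ± 0.17 and Spi1, the macrophage factor PU.1, of 0.01 ± 0.12 (SE).

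The promoters of these genes were searched for the binding letters of such factors, in the 250 bases before each start annotated by RefSeq (GRCm38.p6). Sequences were matched for 8 of the 10 genes (not Mmp19 and Plau), with 9 starts, since Mmp12 has 2. The AP-1 motif TGANTCA, which reads the same on the other strand, was in 3 of the 9 windows and in 6.75% of 32851 windows of all genes. It lay at -44 to -38 before the second start of Mmp12, at -35 to -29 in Mmp13 and at -69 to -63 in Plaur. The ETS motif searched, AGGAA or TTCCT for the other strand, was in 6 of the 9 windows and in 60.3% of all windows. The shorter core GGAA, or TTCC for the other strand, was not searched. The kappaB motif searched, GGGNNTTCC or GGAANNCCC for the other strand, was in 0 of the 9 and in 4.98% of all windows. Longer kappaB forms were not searched. A match is a run of letters and not a shown binding site, and a window without one says nothing of the factor. The windows with an AP-1 match are given below with the first start of Mmp12, 5′ to 3′ and ending at the base before the start. Capitals mark the AP-1 motif. The window of the second Mmp12 start lies inside the Mmp12 gene as given in GENCODE M21 (7344381 to 7369499).

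Mmp12, first start, chr9:7344147-7344396, plus strand: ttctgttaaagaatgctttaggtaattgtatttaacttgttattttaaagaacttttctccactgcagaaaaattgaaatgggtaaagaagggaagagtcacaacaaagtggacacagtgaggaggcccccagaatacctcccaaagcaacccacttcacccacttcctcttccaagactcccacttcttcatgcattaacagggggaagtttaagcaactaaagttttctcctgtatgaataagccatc
Mmp12, second start, chr9:7347124-7347373, plus strand: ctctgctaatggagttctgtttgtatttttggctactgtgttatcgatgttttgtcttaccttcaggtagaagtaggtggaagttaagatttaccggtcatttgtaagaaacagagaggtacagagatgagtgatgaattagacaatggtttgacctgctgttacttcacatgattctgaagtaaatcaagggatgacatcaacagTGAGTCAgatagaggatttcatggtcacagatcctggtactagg
Mmp13, chr9:7272264-7272513, plus strand: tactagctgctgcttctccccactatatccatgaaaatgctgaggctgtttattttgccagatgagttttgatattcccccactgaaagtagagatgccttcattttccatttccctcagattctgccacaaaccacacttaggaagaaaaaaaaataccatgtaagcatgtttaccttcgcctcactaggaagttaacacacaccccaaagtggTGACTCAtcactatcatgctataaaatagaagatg
Plaur, chr7:24462233-24462482, plus strand: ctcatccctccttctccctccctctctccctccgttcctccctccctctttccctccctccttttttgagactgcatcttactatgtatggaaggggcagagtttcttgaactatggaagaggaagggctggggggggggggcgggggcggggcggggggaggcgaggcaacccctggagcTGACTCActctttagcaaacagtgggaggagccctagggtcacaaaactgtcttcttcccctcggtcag

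Among these 3 genes with an AP-1 match, Mmp12 had it before its second start only. Mmp12 and Mmp13 were lower in every knockout library than in any wild-type library, while Plaur overlapped. A link of the motif to the levels was not tested. Adam8, at -1.99, had neither the AP-1 motif nor the ETS motif searched (AGGAA or TTCCT) in its window.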

How the data were processed

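The data are 6 RNA-seq libraries of alveolar macrophages. RNA was taken up in Trizol and made into stranded libraries, per the labels' protocols. The deposited table gives FPKM per gene and library, per the file headers, and the submitters' processing notes name GRCm38. For the aligner, counter, strand setting and annotation: not given in the sources used here. Columns were assigned to the 2 groups by name.

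Genes whose mean FPKM reached 1 (10696 of 11789) were compared on log2(FPKM + 1) with limma 3.58.1 in R 4.3.3 (trended eBayes, two-sided, Benjamini-Hochberg over all genes tested, threshold 0.05). The fit was tested on simulated data. The genes described and the lists were chosen with earlier results of these data known, and p-values measure only the spread between these libraries. Named were the 10 genes, and of each list those past the threshold, the 3 with the smallest p and the 2 most abundant. Alternatives were pseudocounts of 0.1 and 5, a filter of 5 or none, TPM, quantile normalization, array weights and leaving out each library. Promoter sequences came from RefSeq. GENCODE M21 gave all 10 genes the same coordinates as the table. Some genes of the lists that the naming rule or the counts include are not reported here by name.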

Additional observations from a re-analysis of the deposited data

How the results depend on the processing

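No paired analysis was possible because the columns of the table do not carry the replicate numbers of the sample titles. With 6 libraries 27 genes rose and 91 fell. Leaving out 1 library gave 0 to 144 rises and 0 to 267 falls, a minimum mean FPKM of 5 gave 17 and 58, array weights 942 and 992, and TPM 41 and 64, so that rises made up 39.0% of calls against 22.9% as deposited. TPM moved the median of all genes by 0.08. Of the 10 protease, inhibitor and urokinase genes, 4 were past the threshold and lower (0 to 5 without 1 library, 7 with array weights) and 0 higher (1 with array weights). Their median difference was -1.14, -0.59 with a pseudocount of 5. Mmp19, at 0.32, ran from -0.023 (without BLM3) to 0.51 (without A20-1), and Tnfaip3, at 0.46, ran from -0.14 (without BLM2) to 1.27 (without BLM3). For the other lists, array weights gave 2 falls among other metalloproteinases, 1 among regulators, 3 falls and 1 rise in plasminogen activation, 3 falls and 5 rises among AP-1 and ETS factors, and 2 rises among ADAM and ADAMTS genes. Those last had 1 rise with a pseudocount of 5, without a filter and with quantile normalization. The fall in plasminogen activation became 0 at a minimum of 5, where F3 was not tested. Leaving out 1 library gave 0 to 1 rises among ADAM and ADAMTS genes and among AP-1 and ETS factors, 0 to 1 falls among regulators and 0 to 2 in plasminogen activation. The ratio of summed metalloproteinases to TIMPs differed by 0.631, and by 0.374 to 1.02 without 1 library. The cause of these shifts was not tested, beyond the smaller number of libraries or genes in some fits.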

Other observations

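Several related genes were listed below the minimum mean FPKM and entered no comparison. Timp3, the matrix-bound inhibitor, had 0.709, 0.377 and 0.440 FPKM in the knockout libraries, against 1.22, 0.548 and 0.361 in the wild-type libraries. Serpine2, which encodes protease nexin 1, had 0.114, 0.122 and 0.164 FPKM in the knockout libraries, against 0.726, 0.301 and 0.711 in the wild-type libraries. Mmp15 had 0.310, 0.478 and 0.295 FPKM in the knockout libraries, against 1.15, 0.736 and 0.455 in the wild-type libraries. These 3 genes were named after their values were seen.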
